A study of Mus musculus with 24 samples.

Results

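The genes described are Plvap and 9 further genes of vascular endothelium: Pecam1, Cdh5, Esam, Cldn5, Kdr, Flt1, Tek, Emcn and Vwf. These 10 of the 24195 genes counted were taken by symbol. They were chosen by the measured KO-labelled against wild-type difference in the pituitary, so values of that contrast are given as a description without a test. Polyadenylated RNA of 4 whole organs (ovary, uterus, pituitary, hypothalamus) was sequenced in bulk from C57BL6 females of 8 to 10 weeks, at 2.5 days post coitus after timed mating. Each tissue had 3 libraries labelled wild type and 3 labelled as knockout of Kdm4a, a histone demethylase gene, and all females of both genotypes had been mated. The labels do not describe the allele, and they call the 3 libraries of a group biological replicates. Because Kdm4a was counted in every library, the second genotype is called KO-labelled throughout.

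Endothelial cells line the blood vessels, and their gene products differ with the bed. Capillaries of endocrine glands are fenestrated, and Plvap makes the diaphragms that span their fenestrae and caveolae. In most of the brain the endothelium is sealed by tight junctions that contain Cldn5 and forms the blood-brain barrier, whereas the anterior pituitary and the median eminence of the hypothalamus have leaky, fenestrated vessels. The other members hold endothelial cells together (Pecam1, Cdh5, Esam), receive vascular growth signals (Kdr, Flt1, Tek), coat the vessel surface (Emcn) or serve haemostasis (Vwf).

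Promoter sequences were at hand for 5 of the 10 members, from RefSeq on GRCm38.p6. Those of Kdr and Flt1, receptors of the same growth factor that differed in opposite directions between pituitary and hypothalamus, and of Cldn5, which had the largest tissue difference of the members, are printed as the 250 bases before the annotated start. Capitals mark AGGAAG or its reverse complement CTTCCT, a sequence of the kind bound by ETS-family factors, searched on both strands.
Kdr, chr5:75978456-75978705, minus strand: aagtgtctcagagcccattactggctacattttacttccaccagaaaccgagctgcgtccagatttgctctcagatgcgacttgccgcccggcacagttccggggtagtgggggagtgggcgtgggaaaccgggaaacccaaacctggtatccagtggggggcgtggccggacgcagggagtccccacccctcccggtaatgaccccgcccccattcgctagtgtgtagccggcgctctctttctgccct
Flt1, chr5:147726012-147726261, minus strand: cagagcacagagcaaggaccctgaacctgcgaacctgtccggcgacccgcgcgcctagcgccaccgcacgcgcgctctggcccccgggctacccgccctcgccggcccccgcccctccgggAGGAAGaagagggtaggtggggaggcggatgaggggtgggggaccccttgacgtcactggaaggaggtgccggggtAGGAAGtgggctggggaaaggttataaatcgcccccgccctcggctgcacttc
Cldn5, chr16:18776597-18776846, plus strand: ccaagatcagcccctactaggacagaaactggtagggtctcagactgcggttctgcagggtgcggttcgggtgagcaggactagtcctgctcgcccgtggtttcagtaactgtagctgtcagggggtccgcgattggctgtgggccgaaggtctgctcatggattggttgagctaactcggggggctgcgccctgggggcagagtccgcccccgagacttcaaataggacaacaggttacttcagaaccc
The Flt1 window held 2 matches, and those of Kdr and Cldn5 held 0. Of the windows not printed, Emcn held 2 and Tek 0. Over all 32851 promoters of that length, 29.5% held at least 1 match and 6.25% at least 2. A match is a description of these letters and not a site. GC content of the windows was 61.6% for Kdr, 70.4% for Flt1 and 59.6% for Cldn5, beside a median of 52.4% over all promoters.

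Libraries held 13201596 to 23865382 counts. Levels are CPM (library-normalised counts) scaled by TMM over all 24 libraries, and a comparison between genes divides them by the length of the longest transcript in kilobases. In the pituitary, Prl and Gh took 34.7% to 54.8% of the counts, which this scaling allows for. Marker lists separated the 4 tissues: summed hypothalamic markers ran from 933 to 1783 CPM in hypothalamus and to at most 15.8 CPM elsewhere, and summed ovarian markers from 5369 to 18243 CPM in ovary and to at most 23.1 CPM elsewhere. One KO-labelled library stood apart from the rest of its tissue on the first principal component in ovary (replicate 2), uterus (replicate 1) and pituitary (replicate 1). In hypothalamus KO-labelled replicate 2 lay furthest out, at 61.7, but the libraries were spread. KO-labelled replicate 1 was at 27.4 there, and wild-type replicates 1 and 2 were at -38.9 and -43.3. Pituitary libraries also differed in base composition by genotype, with a rank correlation across genes between GC content and deviation from the tissue mean of -0.453 to -0.220 in wild type and 0.127 to 0.497 in KO-labelled libraries. In hypothalamus these correlations ran from -0.633 to -0.239 in wild type and from -0.225 to 0.722 in KO-labelled libraries. In ovary and uterus the ranges of the genotypes overlapped. Kdm4a groups separated only in the uterus, and there it did not pass the test (log2 -0.50, SE 0.12, edgeR adjusted p = 0.122, 3 libraries per group), whereas the authors' deposited table gave Kdm4a an adjusted p of 0.0181 in uterus.

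Plvap (chromosome 8, 71497765 to 71511752) was the one member with its highest level in the pituitary. In wild type it measured 79.2, 107 and 72.5 CPM in the pituitary and 49.2, 41.3 and 38.5 CPM in the uterus. It measured 21.2, 19.6 and 20.2 CPM in the ovary and 16.1, 21.1 and 19.2 CPM in the hypothalamus. The 3 pituitary libraries lay above those of the other tissues, uterus lay above ovary and hypothalamus, and the last pair overlapped. Among wild-type libraries the pituitary level exceeded that of the uterus by 1.02 on the log2 scale (SE 0.17, edgeR adjusted p = 9.38e-05) and that of the hypothalamus by 2.30 (SE 0.18, edgeR adjusted p = 6.42e-08). Uterus exceeded ovary by 1.10 (SE 0.17, edgeR adjusted p = 7.80e-05), whereas ovary and hypothalamus did not pass the test (log2 difference 0.18, SE 0.17, edgeR adjusted p = 0.364). The order was the same in KO-labelled libraries, with a pituitary minus uterus difference of 1.95 (SE 0.22). The step from uterus to pituitary depends on the scaling: with CPM taken over all counts and no TMM, wild-type Plvap ran from 48.7 to 84.7 in pituitary and from 47.2 to 62.4 in uterus, and those ranges overlapped.

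Plvap was also high relative to the other members in the pituitary. Per kilobase its mean was 43.3 ± 9.11 CPM (SD, n = 3) in wild-type pituitary, the highest of the 10, followed by Pecam1 with 7.90 ± 1.93 CPM. It ranked 7 in ovary at 10.2 ± 0.402 CPM, at place 5 in uterus at 21.6 ± 2.78 CPM and at place 2 in hypothalamus at 9.46 ± 1.27 CPM. The ratio of Plvap to the geometric mean of the other 9, per kilobase, ran from 13.3 to 16.5 in wild-type pituitary libraries. It ran from 0.854 to 0.890 in ovary, 1.35 to 1.48 in uterus and 2.43 to 2.99 in hypothalamus. Whole tissue was sequenced, so fewer cells of a type and less RNA per cell cannot be told apart for any level given here.

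**Figure D1:**
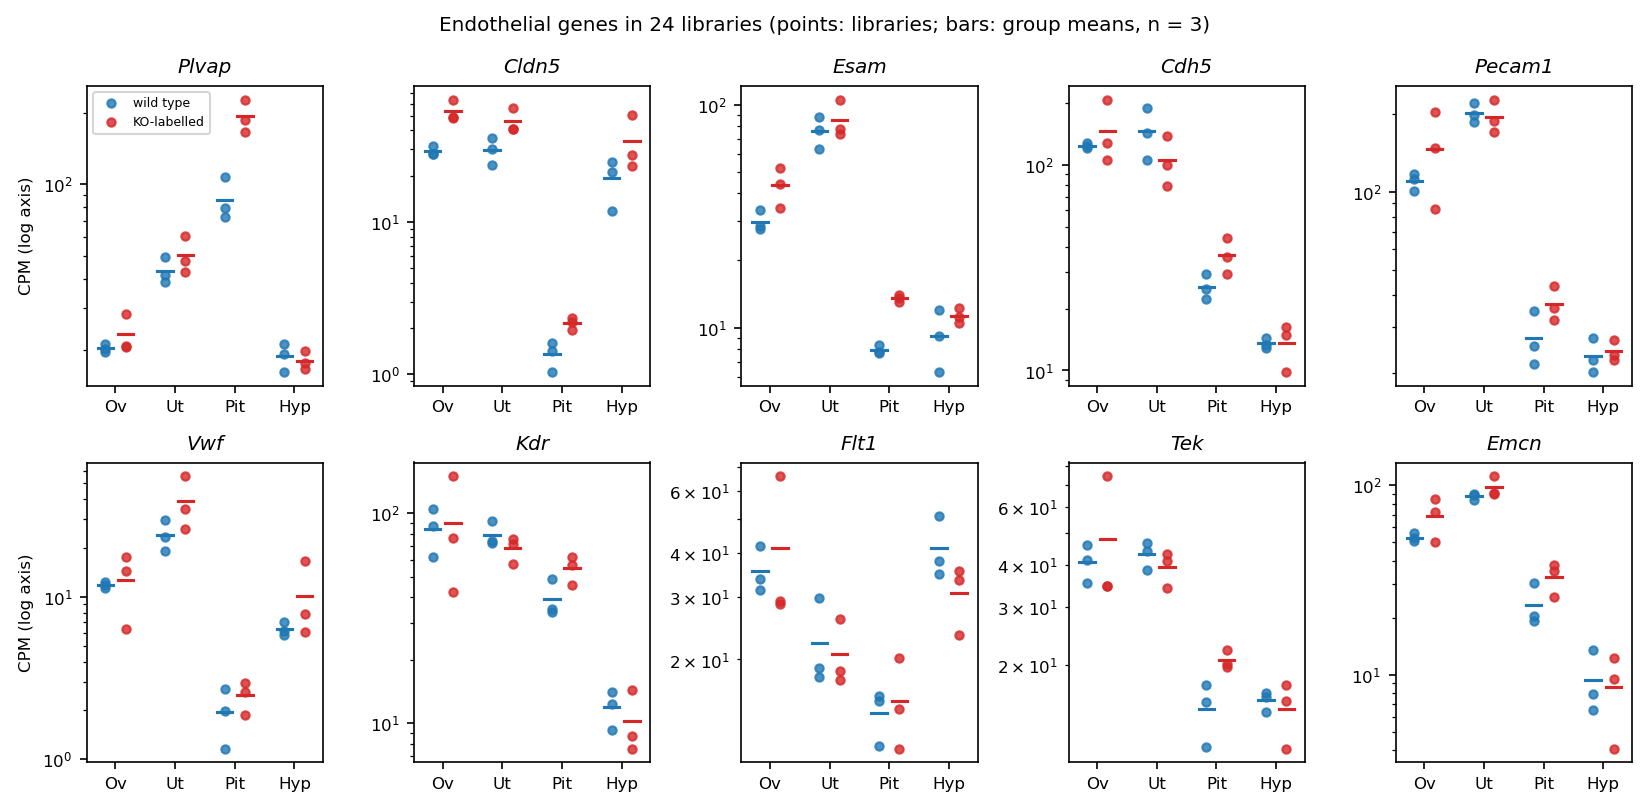
Level of each member in CPM (log axis, scaled by TMM) in ovary (Ov), uterus (Ut), pituitary (Pit) and hypothalamus (Hyp), with 1 point per library, blue for wild type and red for KO-labelled, and bars at the mean of 3 libraries. Plvap peaked in the pituitary, where Cldn5 was at 1.03 to 2.35 CPM in all 6 libraries.

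The junction genes Pecam1, Cdh5 and Esam were highest in the reproductive tract. Pecam1 (chromosome 11, 106654217 to 106750628), an adhesion molecule of endothelial contacts, measured 221, 198 and 185 CPM in wild-type uterus and 112, 117 and 101 CPM in ovary. In pituitary it measured 25.3, 34.6 and 21.7 CPM and in hypothalamus 20.1, 22.5 and 27.3 CPM. Its uterus exceeded its ovary in every library (log2 difference 0.89, SE 0.17, edgeR adjusted p = 4.33e-04), while its pituitary and hypothalamus overlapped (log2 difference 0.34, SE 0.18, edgeR adjusted p = 0.115). Cdh5 (chromosome 8, 104101625 to 104144511), the cadherin of endothelial adherens junctions, measured 188, 143 and 105 CPM in wild-type uterus and 128, 120 and 123 CPM in ovary. These 2 tissues did not pass the test, and the pituitary, at 24.8, 29.3 and 22.4 CPM, lay above the hypothalamus, at 12.9, 14.4 and 13.3 CPM (log2 difference 1.02, SE 0.19, edgeR adjusted p = 3.27e-04). Esam (chromosome 9, 37528078 to 37538319), an adhesion molecule at endothelial tight junctions, measured 87.6, 76.98 and 63.3 CPM in wild-type uterus and 27.6, 28.4 and 33.6 CPM in ovary. Its mean was lowest in pituitary, at 7.68, 7.79 and 8.40 CPM, but hypothalamus overlapped it, at 9.21, 6.31 and 12.0 CPM. The difference between pituitary and hypothalamus did not pass the test (log2 difference -0.09, SE 0.22, edgeR adjusted p = 0.745).

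Cldn5 (chromosome 16, 18776847 to 18778262), the main claudin of the blood-brain barrier, had its lowest level in the pituitary. Its wild-type libraries held 18, 14 and 17 counts there, which is 1.61, 1.03 and 1.41 CPM. In wild-type hypothalamus it measured 11.9, 21.3 and 24.9 CPM, in ovary 31.7, 28.0 and 27.8 CPM and in uterus 30.0, 23.9 and 35.5 CPM. Every library of those tissues lay above every pituitary library, and the pituitary minus hypothalamus difference was -3.74 on the log2 scale (SE 0.31, edgeR adjusted p = 1.02e-07) in wild type and -3.96 (SE 0.33, edgeR adjusted p = 7.05e-07) in KO-labelled libraries. Among tissues outside the pituitary the steps were small: ovary and uterus did not pass the test in wild type (edgeR adjusted p = 0.861), and ovary exceeded hypothalamus by 0.66 (SE 0.24, edgeR adjusted p = 0.0229). That call ended without wild-type ovary replicate 1 (0.61) or wild-type hypothalamus replicate 1 (0.41). Per kilobase the ratio of Cldn5 to Cdh5 ran from 0.0990 to 0.183 in wild-type pituitary, 0.638 to 0.699 in ovary, 0.449 to 0.955 in uterus and 2.60 to 5.28 in hypothalamus. Cldn5 ranked 1 of the 10 members per kilobase in hypothalamus and 9 in pituitary.

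Kdr and Flt1, the receptors for VEGF-A, were ordered differently by tissue. Kdr (chromosome 5, 75932827 to 75978458), the main signalling receptor, measured 105, 62.2 and 87.3 CPM in wild-type ovary and 91.9, 73.8 and 72.1 CPM in uterus. It measured 34.9, 48.7 and 34.0 CPM in pituitary and 12.4, 14.1 and 9.28 CPM in hypothalamus. Ovary and uterus overlapped, and each later step passed the test, the last of them pituitary over hypothalamus by 1.82 on the log2 scale (SE 0.23, edgeR adjusted p = 6.72e-06). Flt1 (chromosome 5, 147561604 to 147726011), which binds the ligand strongly and also exists as a soluble decoy, measured 34.9, 51.1 and 38.0 CPM in wild-type hypothalamus and 11.3, 15.2 and 15.8 CPM in pituitary. Ovary held 41.9, 31.4 and 33.8 CPM and uterus 29.9, 17.9 and 18.9 CPM. Its pituitary lay below its hypothalamus in every library (log2 difference -1.44, SE 0.23, edgeR adjusted p = 8.61e-05), the opposite direction to Kdr. Its uterus exceeded its pituitary by 0.64 (SE 0.23, edgeR adjusted p = 0.0234), a call that ended without wild-type uterus replicate 1 (0.36) or wild-type pituitary replicate 1 (0.50). Among KO-labelled libraries the pituitary minus hypothalamus difference of Flt1 was -1.01 (edgeR adjusted p = 0.0268), and it ended without KO-labelled pituitary replicates 1 (-0.83) or 3 (-0.97) or KO-labelled hypothalamus replicates 2 (-0.95) or 3 (-0.90). Per kilobase, Flt1 over Kdr ran from 2.42 to 3.51 in wild-type hypothalamus, 0.269 to 0.399 in pituitary, 0.208 to 0.280 in uterus and 0.333 to 0.434 in ovary, so hypothalamus was the one tissue with more Flt1 than Kdr. KO-labelled libraries had ratios of 2.00 to 3.49 in hypothalamus and at most 0.591 in the other tissues. Counts per gene do not separate the soluble from the membrane form of Flt1.

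**Figure D2:**
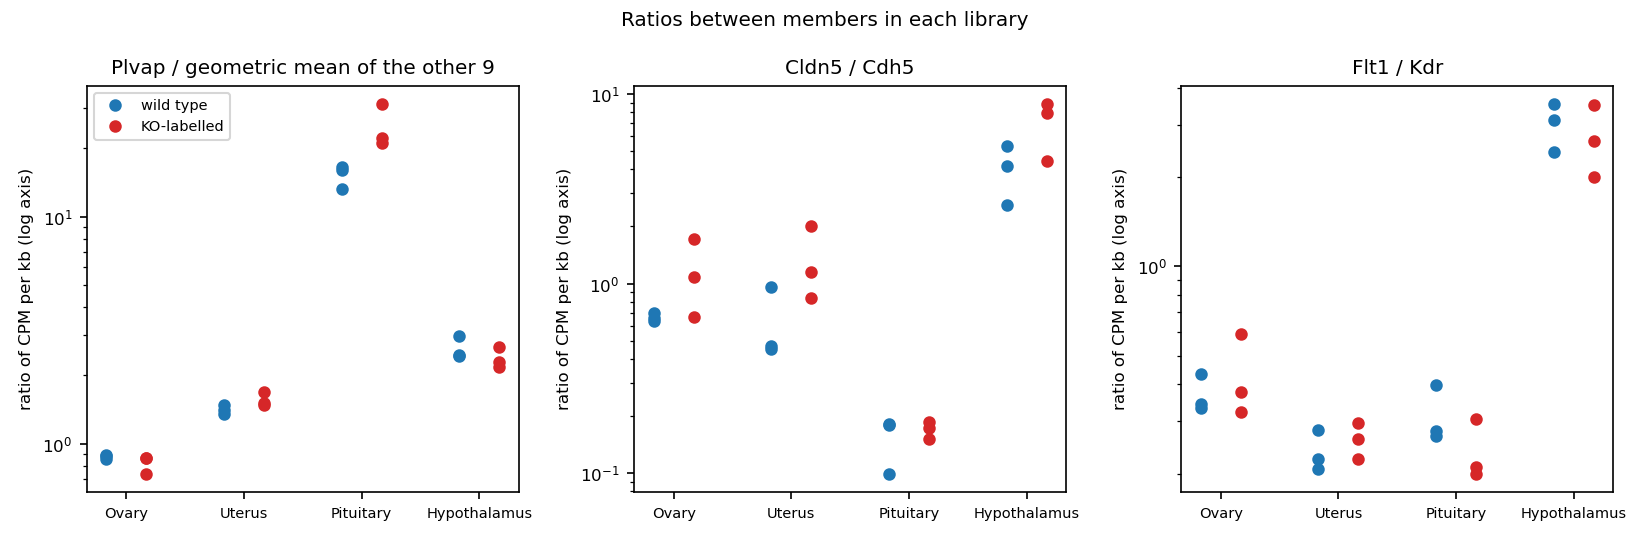
Ratios of CPM per kilobase (log axis) in each library, blue for wild type and red for KO-labelled: Plvap over the geometric mean of the other 9 members, Cldn5 over Cdh5, and Flt1 over Kdr. Plvap stood highest against the others in pituitary, and the other 2 ratios stood highest in hypothalamus.

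Tek, Emcn and Vwf completed the group. Tek (chromosome 4, 94739289 to 94874976), the angiopoietin receptor, measured 46.9, 38.7 and 44.3 CPM in wild-type uterus, 46.1, 41.6 and 35.5 CPM in ovary, 16.5, 16.1 and 14.5 CPM in hypothalamus and 11.4, 17.5 and 15.5 CPM in pituitary. Uterus and ovary overlapped, as did hypothalamus and pituitary, and ovary exceeded hypothalamus by 1.45 on the log2 scale (SE 0.18, edgeR adjusted p = 4.38e-06). Emcn (chromosome 3, 137341067 to 137432185), a sialomucin of venous and capillary endothelium, stepped down at each tissue in wild type: 83.7, 90.4 and 89.2 CPM in uterus, 55.7, 50.7 and 52.5 CPM in ovary, 19.1, 30.6 and 20.5 CPM in pituitary and 7.90, 6.54 and 13.6 CPM in hypothalamus. All 3 steps passed the test, the last with a log2 difference of 1.44 (SE 0.24, edgeR adjusted p = 1.23e-04). Vwf (chromosome 6, 125546774 to 125686679), which tethers platelets to the vessel wall, measured 30.0, 19.2 and 23.5 CPM in wild-type uterus, 11.3, 11.9 and 12.3 CPM in ovary, 6.16, 5.85 and 7.03 CPM in hypothalamus and 1.16, 2.72 and 2.00 CPM in pituitary. Its pituitary level was below its hypothalamus level by a log2 difference of -1.57 (SE 0.29, edgeR adjusted p = 2.64e-04). Its wild-type pituitary libraries held 13, 37 and 24 counts.

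Across the 6 pairs of tissues, 51 of 60 member differences passed FDR 0.05 among wild-type libraries and 42 of 60 among KO-labelled libraries, and the 42 passed in both with the same direction. Differences between tissues were common in these data: 59.1% (ovary and uterus), 61.6% (ovary and pituitary), 71.4% (ovary and hypothalamus), 69.3% (uterus and pituitary), 75.7% (uterus and hypothalamus) and 61.1% (pituitary and hypothalamus) of 16399 genes passed in wild type. In KO-labelled libraries the shares in the same order were 40.2%, 50.4%, 61.3%, 59.5%, 65.5% and 50.6% of 16545 genes. Of the 10 members, 9 were lower in pituitary than in uterus past the threshold in wild type and Plvap was higher. The median member difference, uterus minus pituitary, was 2.19, and the median of all genes was 0.04. Between pituitary and hypothalamus in wild type, 4 members were higher in pituitary (Plvap, Kdr, Emcn and Cdh5), 3 were lower (Cldn5, Vwf and Flt1) and Pecam1, Tek and Esam did not pass. Pecam1 passed without wild-type pituitary replicate 3 (0.48) or wild-type hypothalamus replicate 3 (0.45). Without wild-type pituitary replicate 2, the library with the highest Plvap level of its group, the uterus minus pituitary difference of Plvap was -0.83 and still past the threshold.

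Genes of other endothelial lists were set beside the members in that same contrast, where 61.1% of 16399 genes passed in either direction. Of 17 genes of blood-brain barrier endothelium, 12 were lower and 2 higher in wild-type pituitary than in hypothalamus, with a median of -1.71. Slco1c1, which carries thyroid hormone and organic anions into the brain, measured 52.0, 42.6 and 58.6 CPM in hypothalamus and 0.179, 0 and 0.499 CPM in pituitary. Those that were higher, Lsr (log2 difference 4.25, SE 0.21) and Ocln (1.43, SE 0.21), code for junction proteins. Which cells made the transcripts of this list, higher or lower, was not tested. Of 8 genes of peripheral capillary endothelium, 3 were higher and 2 lower with a median of -0.03, and Esm1, which is secreted by endothelial tip cells, measured 69.0, 86.7 and 97.2 CPM in pituitary and 1.31, 1.66 and 1.20 CPM in hypothalamus. Plvap sits in the caveola as well as the fenestra, and of 7 genes of the caveola coat 2 were higher in pituitary (Ehd2 by 1.48 and Ptrf by 1.14), 3 were lower (Sdpr, Cav1 and Cav2, from -1.38 to -0.97) and 2 did not pass. Among 24 other endothelial genes 7 were higher and 7 lower, with a median of -0.13. The growth factor list of 15 genes held 7 higher and 4 lower: Angpt1, the ligand of Tek, was higher by 2.95 (SE 0.25), while Vegfa, the ligand of Kdr and Flt1, was lower, at -1.24 (SE 0.19).

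**Figure D3:**
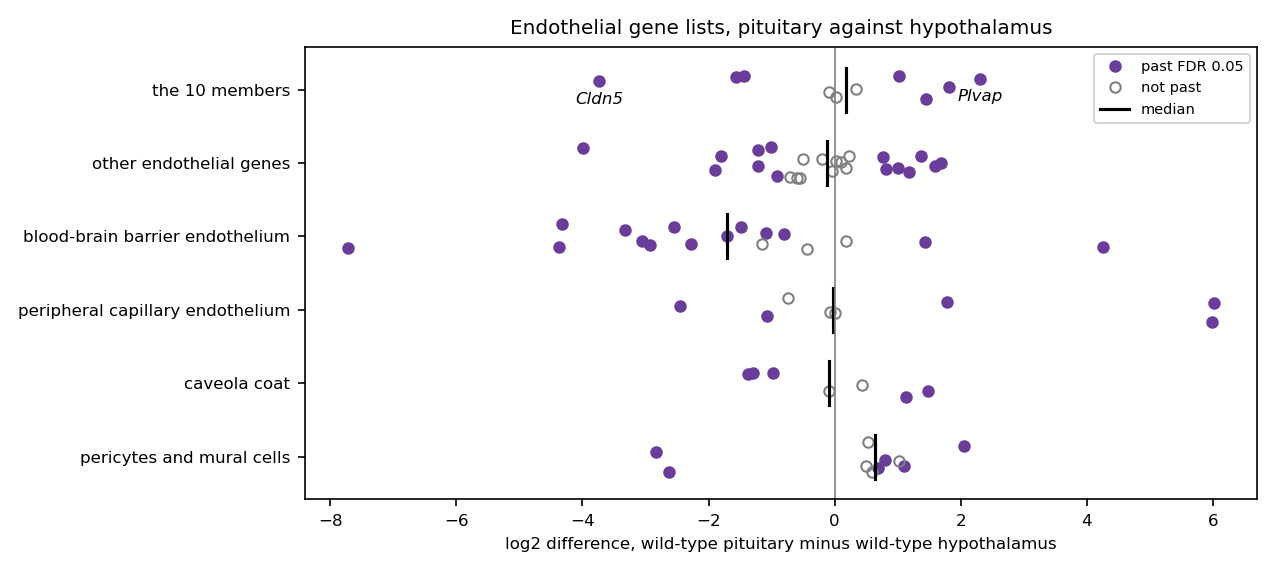
Log2 difference of wild-type pituitary minus wild-type hypothalamus for the members and 5 further lists, with 1 point per gene, filled where the edgeR test passed FDR 0.05 and open where it did not, and a black bar at the median of a list. Plvap lay at 2.30 and Cldn5 at -3.74, and most genes of blood-brain barrier endothelium lay below 0.

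Genotype was tested in the 3 tissues other than the pituitary, whose contrast chose the group. Earlier results of these data were known when the group was chosen. In ovary 0 of 10 members passed FDR 0.05 (edgeR), where 0% of 14460 genes did. At an unadjusted p under 0.05 the counts were 2 members (Cldn5 and Esam) and 1110 genes (7.68%). DESeq2 called 48 genes (0.332%), and of the members 1, Cldn5. In uterus 0 of 10 members passed, where 0.349% of 14910 genes did, with 2 members (Cldn5 and Vwf) and 1889 genes (12.7%) at an unadjusted p under 0.05 and 0 members called by DESeq2, beside 3.36% of genes. In hypothalamus 0 of 10 members and 0% of 14788 genes passed, with 0 members and 999 genes (6.76%) at an unadjusted p under 0.05, and DESeq2 called 7 genes (0.0372%) and 0 members.

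Plvap itself measured 20.9, 20.5 and 28.4 CPM in KO-labelled ovary, 47.6, 60.4 and 42.6 CPM in KO-labelled uterus and 17.6, 19.8 and 16.6 CPM in KO-labelled hypothalamus. Each group overlapped its wild type. The log2 fold changes of KO-labelled against wild type were 0.19 (SE 0.20, edgeR adjusted p = 0.708) in ovary, 0.22 (SE 0.17, edgeR adjusted p = 0.630) in uterus and -0.11 (SE 0.25, edgeR adjusted p = 0.870) in hypothalamus. The difference of the genotype effect between these 3 tissues passed FDR 0.05 for 0.0943% of 16971 genes and for 0 members (edgeR adjusted p from 0.725 to 0.958), all 10 with an unadjusted p of 0.153 or more.

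Cldn5 had the largest fold change among the members in ovary and hypothalamus. This gene was singled out after its values were seen. KO-labelled libraries measured 48.5, 63.7 and 49.0 CPM in ovary, 56.3, 40.8 and 40.8 CPM in uterus and 27.7, 50.7 and 23.4 CPM in hypothalamus. All 3 lay above every wild-type library in ovary and in uterus, and the groups overlapped in hypothalamus. On the log2 scale Cldn5 differed by 0.88 (SE 0.19, edgeR adjusted p = 0.597) in ovary, 0.62 (SE 0.19, edgeR adjusted p = 0.213) in uterus and 0.77 (SE 0.36, edgeR adjusted p = 0.588) in hypothalamus. Without the KO-labelled library furthest out on the first principal component these values were 0.73, 0.45 and 0.37, and 0 members passed in any of the 3 tissues. The authors' deposited table gave Cldn5 an adjusted p of 0.0433 in ovary, where 0.402% of genes in that table were under 0.05, and 0.0793 in uterus, where 3.49% were. Averaged over the 3 tissues, an estimate added after seeing the data, the log2 fold change was 0.77 (SE 0.16, edgeR adjusted p = 0.0510), with 0.112% of 16971 genes past FDR 0.05 and 0 members, and 3 members at an unadjusted p under 0.05 (Cldn5, Esam and Vwf), where 20.6% of genes were. The mean for Cldn5 passed in 6 of the 24 fits that each left out 1 library (edgeR adjusted p from 0.0178 to 0.0492). The libraries left out in those fits were KO-labelled replicates 1 and 3 of ovary, 2 and 3 of uterus and 3 of hypothalamus, and wild-type replicate 3 of hypothalamus. Plvap and Cldn5 have the most GC-rich transcripts of the group, at 60.6% and 60.5%, and with GC and length trends taken out of each library the mean fold change of Cldn5 was 0.36 (edgeR adjusted p = 0.199). In the fits by tissue with the trends removed, Cldn5 was at 0.43 in ovary, 0.39 in uterus and 0.16 in hypothalamus.

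Among the remaining members, Esam groups also separated in ovary, with KO-labelled libraries at 34.5, 44.2 and 52.1 CPM, a log2 difference of 0.54 (SE 0.21, edgeR adjusted p = 0.597). So 2 of 10 members separated in ovary (17.6% of genes), 1 in uterus (19.5% of genes) and 0 in hypothalamus (11.5% of genes). The separated members were higher in KO-labelled libraries, which held for 8.36% of genes in ovary, 9.67% in uterus and 8.13% in hypothalamus. Vwf measured 34.9, 55.5 and 26.1 CPM in KO-labelled uterus and overlapped wild type (log2 fold change 0.67, SE 0.28, edgeR adjusted p = 0.351). All 10 members had a positive fold change in ovary, with a median of 0.22, where 52.5% of genes were positive. KO-labelled ovary replicate 3 held the highest value of its group for 7 members, and without it 6 members were positive with a median of 0.04. In uterus 5 members and in hypothalamus 4 members were positive, with medians of 0.04 and -0.07, where 51.6% and 50.7% of genes were positive. Summed macrophage markers were at 254, 229 and 278 CPM in wild-type ovary and at 408, 415 and 303 CPM in KO-labelled ovary, with 6 of 8 markers positive and 0 called. KO-labelled replicate 3 had the lowest macrophage sum of its group and the highest sum of the members, at 917 CPM, and the part of these markers in the result was not tested.

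**Figure D4:**
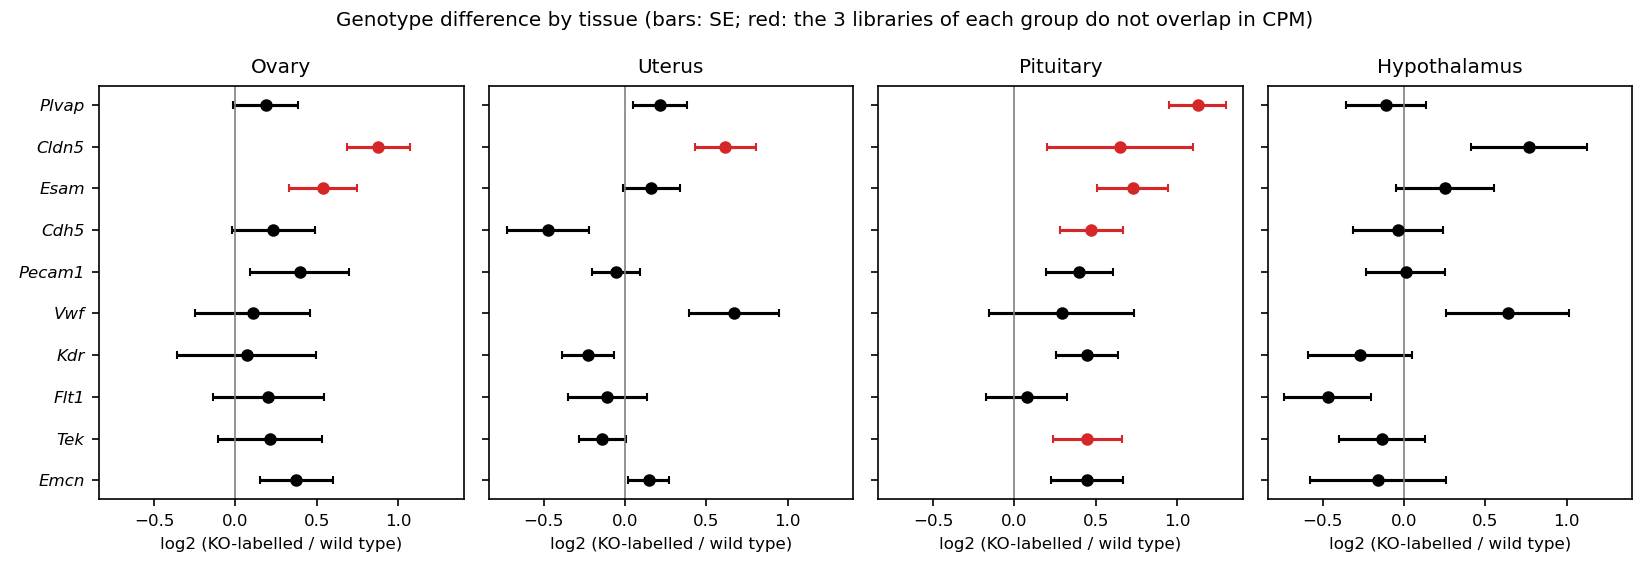
Log2 fold change of KO-labelled against wild type for each member in each tissue, with bars for the SE of the edgeR fit, in red where the 3 libraries of each genotype did not overlap in CPM. The pituitary panel describes the contrast from which the group was chosen, and in ovary, uterus and hypothalamus 0 members passed FDR 0.05.

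In the pituitary, the contrast behind the choice of the group, KO-labelled Plvap was at 227, 187 and 165 CPM, and the wild-type libraries were at 79.2, 107 and 72.5 CPM. The groups did not overlap, and the log2 fold change was 1.13 (SE 0.17). Cldn5 measured 2.20, 2.35 and 1.95 CPM, Esam 13.6, 14.0 and 13.0 CPM, Cdh5 35.7, 43.8 and 29.6 CPM and Tek 20.2, 22.2 and 19.8 CPM in KO-labelled libraries, and these groups also lay above wild type, with log2 fold changes of 0.65, 0.73, 0.47 and 0.45. The other members overlapped: Kdr at 0.45, Emcn at 0.45, Pecam1 at 0.40, Vwf at 0.29 and Flt1 at 0.08. The 5 members that did not overlap stand beside 19.4% of genes (11.7% higher in KO-labelled libraries), and the 10 positive fold changes beside 49.9%. The separations rest on the TMM scaling, with factors of 0.660 to 0.794 in wild-type and 0.514 to 0.636 in KO-labelled pituitary. Without TMM, Plvap still separated (48.7 to 84.7 CPM in wild type, 105 to 119 CPM in KO-labelled libraries). Cldn5 and Esam did so too, but Cdh5 and Tek overlapped. For Cdh5, wild-type replicate 2 held 399 of 17133280 counts and KO-labelled replicate 3 held 380 of 20198904. Pituitary sums given below rest on the same scaling. Over all 14163 genes 0.0424% passed FDR 0.05 by edgeR (0.0141% higher in KO-labelled libraries), and no call is given for the members because they were chosen by this contrast. With 1 of the 6 pituitary libraries left out the log2 fold change of Plvap ran from 1.01 to 1.31, and with the GC and length trends removed it was 0.80. The fit with trends removed gave 0.34 for Cldn5, and the remaining members ran from 0.0644 (Flt1) to 0.68 (Emcn). The GC trends of the pituitary libraries differed by genotype as given above, and their part in the Plvap value was not tested beyond that fit.

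Relative to the other members, Plvap was also higher in those libraries. Per kilobase, Plvap over the geometric mean of the other 9 ran from 21.0 to 31.2 in KO-labelled pituitary and from 13.3 to 16.5 in wild type. The highest ratio was that of KO-labelled replicate 1, the library that stood apart. The summed level of the other 9 members ran from 201 to 243 CPM in KO-labelled and from 137 to 187 CPM in wild-type libraries. The Cldn5 values rest on 25 to 30 counts per KO-labelled library.

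The wider vascular lists are given for the pituitary as a description too. Of 24 other endothelial genes, 20 had a positive fold change with a median of 0.49, beside a median of 0.00 over all genes. Sox18, a transcription factor of vessel development, was at 1.97, 3.53 and 1.75 CPM among wild-type libraries, and the KO-labelled ones were at 5.54, 5.02 and 5.37 CPM. Robo4, an endothelial guidance receptor, was at 4.47, 7.94 and 5.57 CPM among wild-type libraries, and the KO-labelled ones were at 13.7, 12.5 and 10.7 CPM. Both separated, with fold changes of 1.09 and 0.99 on the log2 scale. Of the other lists, pericyte and mural genes were positive in 9 of 10 with a median of 0.30, the caveola coat in 6 of 7 with 0.15, peripheral capillary genes in 6 of 8 with 0.13, and the growth factor list in 7 of 15 with -0.02. Esm1 was at 52.3, 54.2 and 67.7 CPM in KO-labelled libraries, below all 3 wild-type libraries (log2 fold change -0.57, SE 0.17). Summed macrophage markers ran from 134 to 241 CPM in wild type and from 210 to 236 CPM in KO-labelled pituitary, summed mural markers from 120 to 164 and from 161 to 213 CPM, and summed markers of the posterior and intermediate lobes from 396 to 571 and from 371 to 409 CPM. These sums overlapped between genotypes. Other sums did not: the anterior pituitary list was at 442105 to 673933 CPM in wild type and at 717705 to 1070800 CPM in KO-labelled pituitary, and the hypothalamus list at 13.3 to 15.8 and at 7.92 to 9.38 CPM. Sums of the other endothelial genes did not overlap either, at 206 to 269 CPM in wild type and 302 to 346 CPM in KO-labelled pituitary. The same held for blood-brain barrier endothelium (592 to 640 and 651 to 703 CPM) and the caveola coat (214 to 236 and 242 to 277 CPM). Prl and Gh took 34.7% to 44.1% of counts in wild-type and 45.4% to 54.8% in KO-labelled pituitary. For all these markers, their part in the values of the members was not tested. Of 5 red cell genes only Alas2 can be read, at 15.1 to 47.2 CPM in wild type and 6.43 to 36.4 CPM in KO-labelled pituitary, because the globin genes were listed at 0 in all 24 libraries. Outside the pituitary, 0 genes of all these lists passed FDR 0.05 between genotypes by edgeR, of 124 tested in ovary, 122 in uterus and 133 in hypothalamus, with 14, 15 and 9 at an unadjusted p under 0.05, where 7.68%, 12.7% and 6.76% of all genes were.

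**Figure D5:**
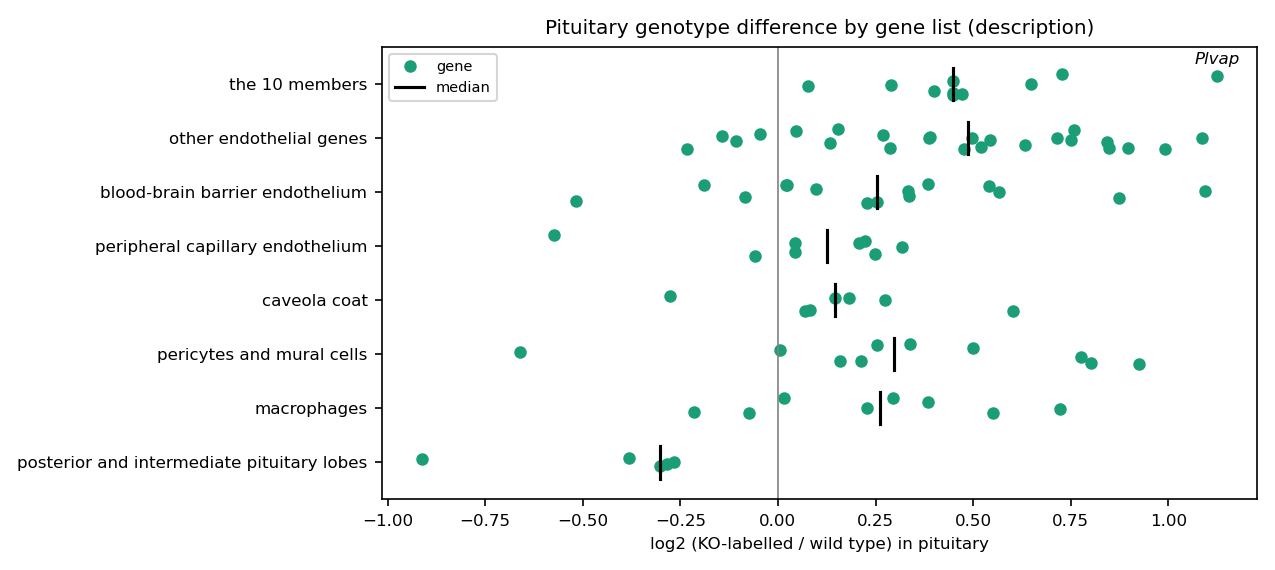
Log2 fold change of KO-labelled against wild type in the pituitary for the members and 7 further lists, with 1 point per gene and a black bar at the median of a list. Medians were 0.45 for the members and 0.49 for the other endothelial genes, and Plvap lay at 1.13.

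The genes whose pattern was most like that of Plvap were found by the root mean square difference of centred log2 CPM, after adding 1 CPM. The added 1 CPM shrinks differences of low genes, so a gene near by this measure need not share the fold changes of Plvap. Over all 24 libraries the nearest 2 were Galnt5 and Gmppa, with differences of 0.37 and 0.38 among 15079 genes. Galnt5 was low outside the pituitary, with means of 0.459 CPM in wild-type ovary and 0.0764 CPM in wild-type hypothalamus, beside 4.16 CPM in wild-type pituitary. Gmppa, a gene of GDP-mannose metabolism, was at 131, 114 and 122 CPM in wild-type pituitary and at 239, 162 and 148 CPM in KO-labelled pituitary. Of the other members the nearest was Kdr with a difference of 1.32, at rank 6440. Over the 6 pituitary libraries alone the nearest were Grasp, Clec2d, Tcte2, Robo4 and 2310047M10Rik, from 0.08 to 0.17, and Esam was the nearest member, at rank 101 with 0.32. Means in wild-type and KO-labelled pituitary were 1.18 and 3.66 CPM for Grasp and 0.341 and 2.03 CPM for Clec2d, where the added 1 CPM weighs most. Those 6 libraries are the ones by which the group was chosen.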

How the data were processed

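For 24 libraries the authors deposited whole-number read counts by gene symbol. They were made from STAR alignments to mm10 counted with HTSeq, after FastQC and Trimmomatic, if the tools listed in the submitters' processing notes are read in their usual roles, and the same notes list DESeq2. Tool versions were not given in the sources used here. Per the labels' protocols, poly-A RNA was sequenced from a kit that does not mark strand, so antisense reads cannot be told apart. The deposited tables of genotype comparisons hold the authors' log2 fold changes and p-values from DESeq2, per the file headers, and their signal column is a mean of normalised counts. Of 24222 entries, 27 carried a date in place of a symbol and were left out (0.122% to 0.392% of counts). One count is worth 0.0419 to 0.0757 CPM, and the precision of a library covers counting error only. The 24 replicate pairs differed beyond sampling noise (chi-square per degree of freedom of at least 10.5).

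Tests were two-sided quasi-likelihood F tests of edgeR 4.0.16 in R 4.3.3 (TMM, filterByExpr, robust fitting) with Benjamini-Hochberg adjustment over all genes tested at FDR 0.05. Genotype fits used the 6 libraries of a tissue, and tissue fits stayed within a genotype, with its 12 libraries. The SE matches the F statistic. All 10 members passed the filter on low counts in every fit. Positions, transcript lengths and GC content came from GENCODE M21 (GRCm38), which matched 98.52% of symbols. The fits were tested on simulated counts with 200 changed genes. Of changes by a factor of 2, 5.71% were recovered in ovary and 5.71% in hypothalamus, 80% in uterus and 63.8% in pituitary. Of changes by a factor of 1.5, 1.61%, 1.61%, 9.68% and 12.1% were recovered in the same order. False calls were 1 of 55 in ovary, 7 of 72 in hypothalamus, 9 of 137 in uterus and 14 of 127 in pituitary. Outside the ovary these lay above the nominal share of 0.05. Most changes by a factor of 2 would go uncalled in ovary and hypothalamus, and most by a factor of 1.5 in every tissue. So 0 members past FDR 0.05 in ovary, uterus or hypothalamus does not mean an absence of change. In uterus the largest member fold changes, 1.59 for Vwf and 1.53 for Cldn5, were near the factor of 1.5.

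The members and lists were chosen with earlier results of these data known. All members are named. From the other lists the rule took genes with the largest tissue difference or the largest pituitary fold change, and not all are printed. Of the genes most like Plvap over 24 libraries, those past the nearest 2 are not reported here. Alternatives were RLE scaling, other filters, DESeq2 1.42.0, limma-voom 3.58.1, removal of GC and length trends, a fit over 24 libraries, the label number as a block, leaving out Prl and Gh, and leaving out each library. The mean over 3 tissues and its alternatives were added after seeing the data.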

Additional observations from a re-analysis of the deposited data

How the results depend on the processing

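With 3 libraries per group the counts of genes past FDR 0.05 moved with the tool. In ovary the count was 0, and it was 1 with no filter, 48 by DESeq2, 1 with GC and length trends removed, 34 in 1 fit over 24 libraries and 0 to 2 when a library was left out. DESeq2 called 1 member there, Cldn5. In uterus it was 52, and it was 108 with no filter, 542 by DESeq2, 99 with the trends removed and 0 to 171 when a library was left out. In pituitary it was 6, and it was 16 with no filter, 48 by DESeq2, 1 by limma-voom and 1 to 10 when a library was left out. In hypothalamus it was 0, and 7 by DESeq2 and 1 with the trends removed. The interaction gave 16 genes, and 2 to 29 when a library was left out. The mean over 3 tissues gave 0 members, and 0 to 1 when a library was left out. The causes of these moves were not tested. Same-numbered libraries of both genotypes correlated from -0.297 to 0.246 in their deviations from the group means. That cannot show whether equal numbers mark the same animal across tissues, and the labels do not say. Within a genotype, same-numbered libraries of different tissues correlated from -0.130 to 0.126 in wild type and from -0.395 to 0.454 in KO-labelled libraries. Differently numbered ones ran from -0.218 to 0.246 and from -0.502 to 0.487. The main fits did not use the number and took libraries as independent, and whether tissues shared animals was not tested. With the number as a replicate block the pituitary gave 33 genes and the interaction 2, and the log2 fold changes in ovary were -0.0822 for Kdr and -0.000863 for Vwf. Values that changed sign were all of differences that had not passed the test. With the trends removed they were -0.14 for Plvap in ovary, 0.0288 for Flt1 and 0.00594 for Pecam1 in uterus, 0.11 for Emcn, -0.0167 for Esam, -0.0233 for Pecam1 and 0.0597 for Tek in hypothalamus, and -0.22 for Plvap, 0.0216 for Flt1 and 0.13 for Tek in the mean over 3 tissues. Kdr in ovary was -0.0778 by limma-voom, and Cdh5 in hypothalamus was 0.00937 in 1 fit over 24 libraries. Among wild-type tissues, Cldn5 in ovary minus uterus was 0.0071 with RLE scaling and 0.0067 by DESeq2, and Tek in pituitary minus hypothalamus was -0.0743 with RLE scaling, -0.074 by DESeq2 and -0.0141 without Prl and Gh. Leaving out a library gave ranges across 0 in ovary for Cdh5 (-0.0745 to 0.42), Flt1 (-0.29 to 0.41), Kdr (-0.49 to 0.41), Tek (-0.23 to 0.40) and Vwf (-0.18 to 0.43). It did so in uterus for Esam (-0.00619 to 0.28), Flt1 (-0.31 to 0.17) and Pecam1 (-0.18 to 0.036), in pituitary, as a description, for Flt1 (-0.18 to 0.27), in hypothalamus for Cdh5 (-0.17 to 0.15), Emcn (-0.51 to 0.21), Pecam1 (-0.076 to 0.14) and Tek (-0.27 to 0.0227), and in the mean over 3 tissues for Cdh5 (-0.18 to 0.00570) and Tek (-0.15 to 0.0633). Among wild-type tissues the same held for Cldn5 (-0.20 to 0.0866) and Kdr (-0.10 to 0.24) in ovary minus uterus, Flt1 in ovary minus hypothalamus (-0.26 to 0.0345), and Esam (-0.31 to 0.14) and Tek (-0.12 to 0.18) in pituitary minus hypothalamus. Among KO-labelled tissues it held for Kdr (-0.20 to 0.69) and Tek (-0.19 to 0.46) in ovary minus uterus and for Flt1 in ovary minus hypothalamus (-0.10 to 0.67).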
